A study of Mus musculus with 6 samples.

Results

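Of the 22386 H3K27ac peak summits found in normal mouse gastric corpus epithelium on chromosomes 1 to 19 and X, 1011 lay more than 1 kb from every H3K27ac summit and from every YAP summit of the YAP-activated tumor. They were chosen by the positions of the summits in the normal H3K27ac list, the tumor H3K27ac list and both tumor YAP lists, and they make up 4.52% of the normal list. H3K27ac was profiled in 1 library of normal stomach and 1 library of Yap-activated gastric cancer, and YAP in 2 libraries of each, by chromatin immunoprecipitation and sequencing of epithelial cells released from the corpus with EDTA. Normal mice were WT. Tumor mice carried CluCreERT2, R26rtTA and HA-Yap+, so that doxycycline switched on tagged Yap in cells where the Cre at Clu had been active. The protocol printed for every sample, normal ones included, is 2 mg of tamoxifen on 5 days followed by doxycycline food for 14 days before the endpoint. Because recombination starts from cells that use Clu, epithelial cells that carry the transgene but do not express it can be present in the tumor material. No source used here gives ages, sexes or the number of animals per library.

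H3K27ac is a histone mark found at active promoters and enhancers, and it disappears from elements that are switched off. YAP is a coactivator that binds chromatin through TEAD factors, is held back by the Hippo kinases and can raise acetylation where it binds. The corpus epithelium holds acid-secreting parietal cells, enzyme-secreting chief cells, mucous neck cells and surface pit cells, which turn over from isthmus stem cells and can change into a mucous metaplasia after injury. A summit is the highest point of a called peak. Its deposited score, on the −log10 scale of the peak caller's significance, was used only to rank summits within 1 list.

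Depth is unknown for all 6 libraries, because the files hold summits and not reads. The tumor H3K27ac list held 66532 summits on the same chromosomes, and the YAP lists held 1574 and 2121 summits in the libraries labelled normal 1 and 2 and 38227 and 53831 in those labelled tumor 1 and 2. Words inside the peak names go against the labels of YAP normal 2, whose names share a word with tumor H3K27ac, and of YAP tumor 1, whose names share one with normal H3K27ac. Both are named by their labels, and counts without tumor 1 are given beside some results below. Only the label of the normal H3K27ac library was compared with marker genes, in lists written with earlier results of these libraries known. In them 19 of 20 parietal, 13 of 14 pit and 10 of 14 chief cell genes had a normal H3K27ac summit. The counts were 2 of 14 for squamous, 4 of 20 for immune and 7 of 18 for fibroblast, muscle and endothelial genes. Over all protein-coding genes 11862 of 21627 had one. Other lists were less clear, with 10 of 16 mucous neck and metaplasia genes and 4 of 20 endocrine and tuft cell genes. Intestinal genes had 6 of 14, and pancreas and liver genes 3 of 12. With 1 H3K27ac library per tissue there is no replicate check, so no test between tissues was made and shares are given with Wilson 95% intervals, which cover counting error only.

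Few members lay at promoters. A member fell inside the RefSeq promoter window of a gene, from 250 bp before to 50 bp after a transcript start, in 6 of 1011 cases (0.593%, 0.272 to 1.29), and 3 of the 6 are protein-coding genes: Kcnj16, a potassium channel subunit gene of parietal cells, Etv1, an ETS transcription factor gene, and Arhgdib, a gene expressed in blood cells. The 250 bases upstream of the starts of Kcnj16 and Etv1 (RefSeq, GRCm38.p6) are shown because members were found on these promoters, with those of Ifitm3, an interferon-induced membrane protein gene whose start had a member on either side. Each reads 5′ to 3′ in the direction of the gene, and capitals mark matches to the motifs named below.
Kcnj16, chr11:110997237-110997486, plus strand: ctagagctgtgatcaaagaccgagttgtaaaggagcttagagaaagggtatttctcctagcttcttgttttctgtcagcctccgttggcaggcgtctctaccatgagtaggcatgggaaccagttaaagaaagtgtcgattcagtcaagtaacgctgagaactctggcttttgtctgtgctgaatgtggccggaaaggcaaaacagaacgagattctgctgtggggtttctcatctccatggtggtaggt
Etv1, chr12:38779832-38780081, plus strand: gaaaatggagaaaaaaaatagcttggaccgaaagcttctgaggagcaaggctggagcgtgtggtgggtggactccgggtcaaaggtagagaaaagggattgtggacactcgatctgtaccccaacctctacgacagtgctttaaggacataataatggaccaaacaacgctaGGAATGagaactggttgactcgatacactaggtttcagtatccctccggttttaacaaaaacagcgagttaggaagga
Ifitm3, chr7:141010745-141010994, minus strand: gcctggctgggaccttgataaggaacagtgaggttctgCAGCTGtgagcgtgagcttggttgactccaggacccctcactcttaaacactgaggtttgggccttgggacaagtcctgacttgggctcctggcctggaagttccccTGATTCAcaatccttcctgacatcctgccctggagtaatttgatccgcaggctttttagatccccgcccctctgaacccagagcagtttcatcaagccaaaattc

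The summit lay 94 bp upstream of the start in Kcnj16, 88 bp upstream in Arhgdib and 30 bp downstream in Etv1. The share of summits inside a promoter window was 1.25% (0.932 to 1.68) in normal-only summits with tumor YAP, 2.65% in shared summits without it and 8.54% in shared summits with it. At Ifitm3 a summit lay 254 bp upstream and another 185 bp downstream of the start. Both strands were searched for 10 motifs. Those of nuclear receptors were TCAAGGTCA for estrogen-related receptors and, for HNF4, CAAAGTCCA. The motif AGATAA stood for GATA factors, which are active in gastric epithelium. The motif TGTTTAC stood for FOXA factors of the endoderm. The motif GGAATG stood for TEAD, the partner of YAP. The AP-1 motif was TGANTCA, where N is any base. The motif CAGCTG is the E-box of class A factors. The E-box of MYC-like factors is CACGTG. The motif ACAATG stood for SOX factors. The KLF motif was GGGTGTG. No motif contains another. The Kcnj16 window held none of them. That of Etv1 held GGAATG, with its first base 78 bp upstream of the start, and this string occurs in 12.6% of the 32619 promoter windows. Ifitm3 held TGATTCA, a match to the searched string TGANTCA, and CAGCTG. The string TGANTCA, with any base at N, is found in 6.78% of windows, and CAGCTG in 13.1%. Matches are descriptions of letters and not of binding. The other members lie outside these windows, and their sequence was not analysed here.

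The rule removed summits in unequal steps. Of the 22386 normal summits, 4443 (19.8%, 19.3 to 20.4) had no tumor H3K27ac summit within 1 kb. Tumor YAP lay within 1 kb of 3432 of those 4443 (77.2%, 76.0 to 78.5), which leaves the 1011. Tumor YAP 1 lay near 2702 of them, tumor YAP 2 near 3231, and both near 2501. Among the 17943 normal summits that did have a tumor H3K27ac partner, 17036 (94.9%, 94.6 to 95.3) had tumor YAP. These 2 shares are not matched for score. Up to percentile 10 of the score within the normal list, 776 normal-only summits had tumor YAP and 337 did not. Of the shared summits in that band 865 had it and 260 did not. Without YAP tumor 2 the members numbered 1741, and without YAP tumor 1 they numbered 1212. At the H3K27ac limit members just inside lay at Fxyd3 (1012 bp) and Mthfd1 (1013 bp), and the closest summits left out were at Igfbp7 (1000 bp), Zeb1 (994 bp) and Clec2d (992 bp). At the YAP limit the closest member lay at Garre1 (1006 bp), and the closest summits left out were at Nr2f2 (998 bp), Fads6 (996 bp) and Pfkl (992 bp). Within 100 bp of the limits, 29 members and 21 summits left out lay at the H3K27ac limit, and 30 and 43 at the YAP limit.

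The members were weak peaks of the normal list. Their scores ran from 1.8 to 22.8 with a median of 5.06, and 494 of 1011 (48.9%) scored under 5. Their median percentile within the normal list was 15.1 (quartiles 7.66 and 26.0). None of them was above percentile 75, where 99.4% of the summits were shared with the tumor and had tumor YAP. The median percentile was 22.6 for the 3432 normal-only summits with tumor YAP, 20.1 for the 907 shared summits without tumor YAP and 61.3 for the shared summits with tumor YAP. Members thus took 15.1% of the summits up to percentile 10, 12% of summits between percentiles 10 and 25, 4.38% of those between 25 and 50 and 0.447% of those between 50 and 75. The part of the low scores in the absence of a tumor summit was not tested.

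**Figure D1:**
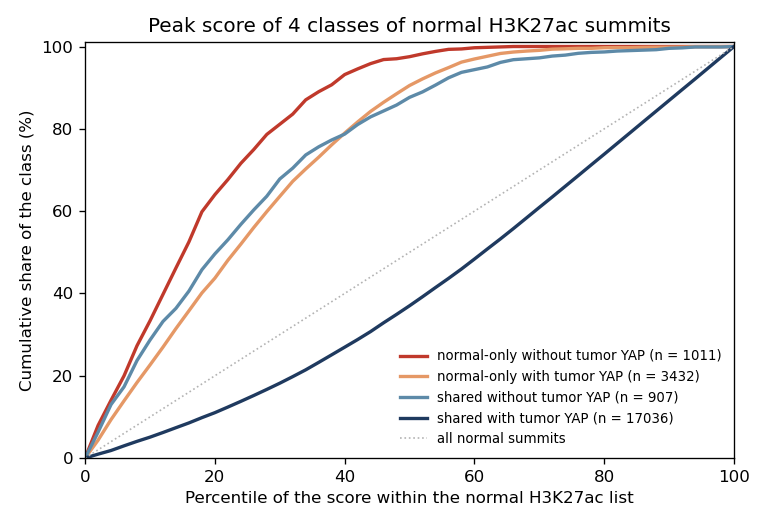
Cumulative share (%) of each class of normal H3K27ac summits against the percentile of the peak score within the normal list, 1 line per class, with a dotted line for all normal summits. The line of the 1011 members rises first, with a median at percentile 15.1, and that of shared summits with tumor YAP rises last, with a median at 61.3.

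Members lay away from gene ends, where a gene end is the start or end coordinate of a protein-coding RefSeq gene. Of the 1011, 69 (6.82%, 5.43 to 8.55) lay within 1 kb of one, and 53 (5.24%, 4.03 to 6.79) within 1 kb of a transcript start. The gene-end share was 10.4% (9.42 to 11.5) in normal-only summits with tumor YAP, 22.9% (20.3 to 25.8) in shared summits without tumor YAP, 63.9% (63.2 to 64.6) in shared summits with tumor YAP, and 8.24% (7.98 to 8.5) in the 41623 tumor-only summits without tumor YAP. Inside the body of a protein-coding gene lay 577 members (57.1%, 54.0 to 60.1), against 52.6% (50.9 to 54.3) of the normal-only summits with tumor YAP. The median distance to a gene end was 19728 bp, and 282 members had none within 50 kb. No exon or intron annotation was used, so the share in introns is not given.

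The gene-end share was also compared between summits of like score. Up to percentile 10, 6.53% (4.35 to 9.69) of 337 members and 6.57% (5.03 to 8.54) of 776 normal-only summits with tumor YAP lay near a gene end. Between percentiles 10 and 25 the shares were 5.2% (3.42 to 7.82) and 7.08% (5.69 to 8.77), and between 25 and 50 they were 10.6% (7.35 to 15.1) and 12.6% (10.9 to 14.5). The intervals of these 2 normal-only classes overlapped in those 3 bands. Between percentiles 50 and 75 they did not: 0 of 25 members (0.0%, 0.0 to 13.3) and 19.8% (15.7 to 24.6) of the normal-only summits with tumor YAP lay near a gene end. Shared summits without tumor YAP lay near gene ends more often in the lowest 3 bands, with 19.2% (14.9 to 24.5), 21.5% (17 to 26.8) and 24.9% (20.1 to 30.4), and their intervals did not overlap those of the members. Shared summits with tumor YAP had 35.0%, 44.8% and 53.2%.

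**Figure D2:**
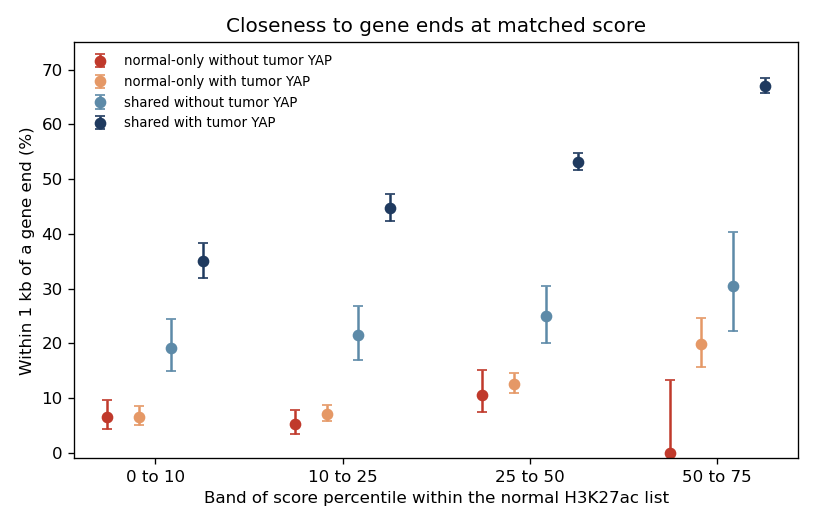
Gene-end share (%, summits at most 1 kb from a gene end), by band of score percentile within the normal H3K27ac list and by class; points are shares and bars Wilson 95% intervals. In the lowest 3 bands the members (5.2% to 10.6%) sit beside normal-only summits with tumor YAP and under both shared classes; between percentiles 50 and 75 the members are at 0.0% and normal-only summits with tumor YAP at 19.8%.

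The distances to tumor summits outside the 1 kb limit varied widely. The nearest tumor H3K27ac summit was 10221 bp away at the median (quartiles 3612 and 23644 bp), and 99 members (9.79%) had none within 50 kb. The nearest tumor YAP summit was 6063 bp away at the median (2308 and 15614 bp), and 93 members (9.2%) had none within 50 kb. Both marks were over 50 kb away for 30 members (2.97%). Within 5 kb, 543 members (53.7%) had a tumor summit of H3K27ac or YAP. Tumor H3K27ac taken by itself lay within 5 kb of 30.5% of members (27.7 to 33.4). A normal summit that the tumor list shared lay within 10 kb of 279 members (27.6%), and a normal-only summit with tumor YAP within 10 kb of 110 (10.9%).

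**Figure D3:**
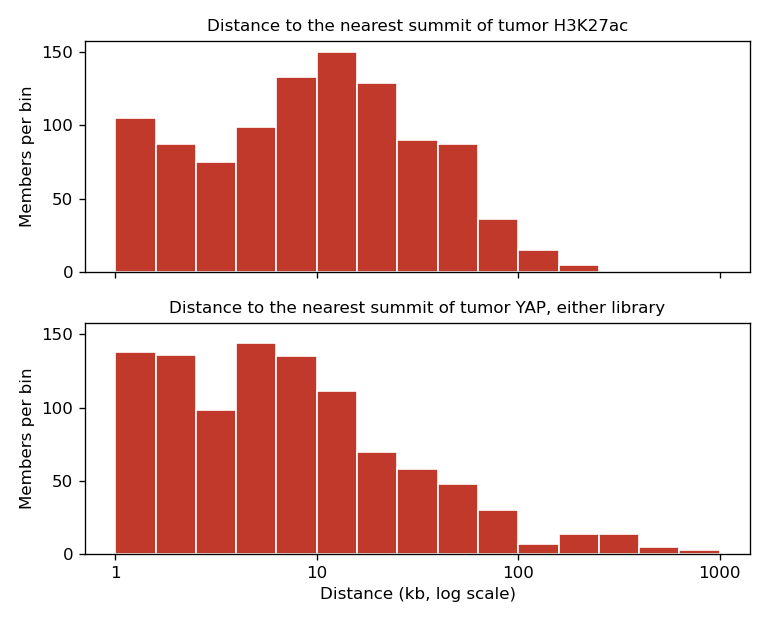
Number of members per bin of distance (kb, log scale) to the nearest tumor H3K27ac summit (top) and the nearest tumor YAP summit of either library (bottom). Both start at the 1 kb limit of the rule; the medians are 10221 bp for H3K27ac and 6063 bp for YAP, and the YAP distances reach 822947 bp.

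Members were mostly scattered. Neighbouring members were joined into 943 runs, in which the largest gap was 12021 bp, and of which 883 held 1 member, 54 held 2 and 6 held 3 or more. The longest runs had 4 members. The run at chromosome 11, 49063914 to 49087081, covered Tgtp2 and Ifi47, which encode interferon-inducible GTPases, with 2 members each and a best score of 9.03. The Tgtp2 members lay 364 bp upstream and 298 bp downstream of a start, and tumor H3K27ac was 23929 and 24591 bp away and the nearest tumor YAP, of tumor 2, 13097 and 12435 bp away. The other run of 4, at chromosome 10, 43654775 to 43666069, had no gene end within 50 kb. Runs of 3 lay at Gm51877 and Sfi1, at Fa2h, at Plscr1 and Plscr2, and at chromosome 10, 69926922 to 69939618. The share of normal summits that were members ran from 2.48% on chromosome 15 to 6.37% on chromosome 10.

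Each member was assigned to the protein-coding gene with the nearest end within 50 kb. This placed 729 members at 655 genes, 3.03% of the 21627 genes and 5.52% of the 11862 genes with any normal summit. Of the 655, 588 had 1 member, 60 had 2 and 7 had 3. Most of them had tumor H3K27ac elsewhere: 610 (93.1%) had a tumor H3K27ac summit, 477 (72.8%) had a normal summit shared with the tumor, and 602 (91.9%) had a tumor YAP summit. The last 2 shares were higher, at 95.7% and 97.7%, in the 11207 genes with a normal summit and no member. Part of this gap is set by the rule, because a normal summit near neither tumor mark is a member. For the first share, the value in genes without a member is not given here. At the median, genes with a member had 2 normal and 3 tumor H3K27ac summits, and the 11207 other genes had 1 and 2. All normal summits were members at 157 of the 11862 genes with a normal summit, and only 14 of the 157 had more than 1 normal summit. No tumor H3K27ac summit was assigned to 42 of the 157. Yap1, the gene of the induced coactivator, had 2 normal and 2 tumor H3K27ac summits, and 1 of the 2 normal ones was a member 24670 bp downstream of the start.

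Parietal cell genes held members at 9 of 20 genes (45%), against 3.03% of all genes. They also had many normal summits, 65 in all, so the share of summits is the better measure. Of the 65, 11 were members (16.9%, 9.72 to 27.8), against 3.64% (3.39 to 3.91) of the 20039 normal summits assigned to any gene. Among summits in the lower-scored part of the list, up to percentile 50, the shares were 11 of 47 (23.4%, 13.6 to 37.2) and 7.59% (7.08 to 8.15). That band is wide, and the score was not matched within it. A further 11 of the 65 lacked tumor H3K27ac but had tumor YAP, so 50.0% (30.7 to 69.3) of the parietal normal-only summits had no tumor YAP, against 21.9% (20.6 to 23.4) at all genes. The lists were written with earlier results of these libraries known and are no independent evidence of direction. The other 43 of the 65 parietal summits were shared with the tumor, and parietal genes had more tumor than normal H3K27ac summits. All genes together also had more, with 50605 tumor against 20039 normal summits. For the parietal summits that lacked tumor H3K27ac, fewer parietal cells and less H3K27ac per cell cannot be told apart in these tissue preparations. With tumor YAP excluded out to 2 kb in place of 1 kb, 4 parietal genes held a member, and with only normal summits that scored 10 or more, 1 did. With the tumor list shortened to the length of the normal list by score, 14 did. With normal summits closer than 2 kb merged, 7 of 46 parietal summits were members, at 6 genes.

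Among transporters of acid secretion, Slc26a7, which encodes an anion exchanger and chloride channel (chromosome 4, 14502430 to 14621946), had 3 members. Its summits numbered 3 in normal H3K27ac, 2 in tumor H3K27ac, 0 and 0 in YAP normal 1 and 2, and 1 and 1 in YAP tumor 1 and 2. All of its normal summits were thus members, with scores of 8.39, 5.4 and 9.82, and the nearest tumor H3K27ac summits lay 35021, 35606 and 11821 bp away. The best of them lay within the gene, 538 bp from an end. Kcnj16 (chromosome 11) had 1 normal and 0 tumor H3K27ac summits, 0 and 0 YAP summits in the libraries labelled normal and 1 and 3 in those labelled tumor. Its member, at the promoter printed above, scored 9.6, and the next tumor H3K27ac summit was 68527 bp away, while YAP tumor 1 had a summit at 1362 bp and YAP tumor 2 at 11286 bp. The member thus lies close to the YAP limit of the rule in 1 tumor library and far from it in the other.

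Slc26a9, another chloride transporter gene, had 3 normal and 4 tumor H3K27ac summits. Its member scored 6.97, 2256 bp downstream of the start, and a tumor summit lay 1200 bp off. Kcnq1, the gene of a potassium channel that recycles potassium for the proton pump, had 6 normal and 19 tumor H3K27ac summits, and its member scored 4.45 with tumor H3K27ac at 1288 bp and tumor YAP at 1525 and 1527 bp. Clic6, a chloride channel family gene, had 4 normal and 3 tumor summits and a member that scored 10.2. These 3 genes kept tumor summits within 2232 bp of the member, unlike Slc26a7 and Kcnj16.

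The receptors and regulators of the parietal list each had 1 member. Hrh2, the histamine H2 receptor gene, had 4 normal and 4 tumor H3K27ac summits, and its member scored 2.95. Chrm3, the muscarinic M3 receptor gene, had 5 and 3, and its member scored 6.86 at 19583 bp upstream of the start. Ppargc1a, which encodes the mitochondrial coactivator PGC-1alpha, had 4 and 4, with 1 member of score 3.67 and 3 normal-only summits with tumor YAP. Ezr, which encodes the microvillar linker ezrin, had 11 and 13, and its member scored 4.47. The proton pump genes Atp4a and Atp4b held no member, but Atp4a held one when the tumor H3K27ac list was shortened to the length of the normal list.

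**Figure D4:**
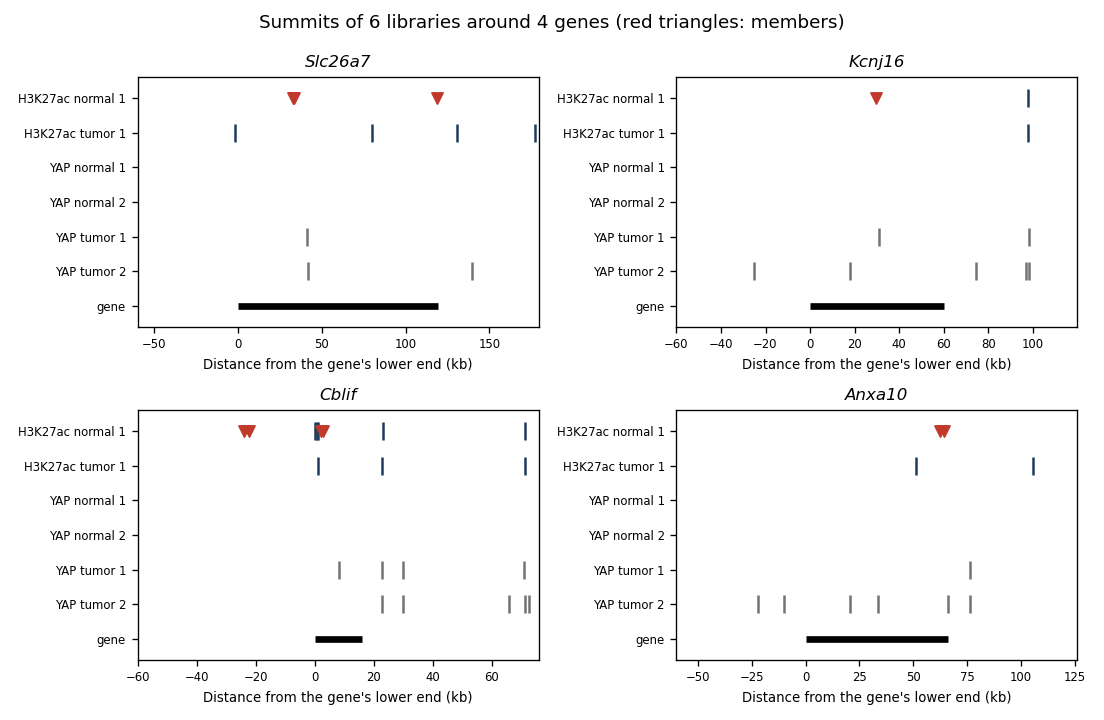
Summits of the 6 libraries around Slc26a7, Kcnj16, Cblif and Anxa10, as distance (kb) from the gene's lower coordinate; ticks are summits, red triangles are members, and the black bar is the gene. At Slc26a7 the 3 normal summits have no tumor summit opposite, while at Cblif 3 normal summits near the start sit with 1 tumor summit.

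Pit cell genes, which serve the surface mucus layer, held members at 3 of 14 genes (21.4%), with 4 of 25 normal summits (16.0%, 6.4 to 34.7), a share close to the 16.9% of parietal summits. Anxa10, an annexin gene of gastric mucous cells, had 2 normal and 2 tumor H3K27ac summits, 0 and 0 YAP summits in the libraries labelled normal and 1 and 4 in those labelled tumor. Both normal summits were members, 1904 and 3858 bp downstream of the start with scores of 9.24 and 3.08, and tumor H3K27ac lay 12916 and 10962 bp away. Muc5ac, the surface mucin gene, had 2 normal and 2 tumor H3K27ac summits and 1 member, which scored 4.1 with tumor H3K27ac at 2953 bp and tumor YAP at 1279 and 1309 bp. Sult1c2, a sulfotransferase gene, had 4 normal and 3 tumor summits and 1 member of score 6.12. A further 9 of the 25 pit summits were normal-only with tumor YAP, among them both summits of Gkn1. Members thus made up 30.8% (12.7 to 57.6) of the normal-only pit summits, an interval that includes the 21.9% at all genes. When tumor YAP was excluded out to 5 kb, no pit gene held a member.

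Chief cell genes, which serve enzyme secretion, held members at 1 of 14 genes, with 2 of 26 normal summits (7.69%, 2.14 to 24.1). The gene was Cblif, which encodes gastric intrinsic factor and in mice is made by chief cells. It had 5 normal and 1 tumor H3K27ac summits, 0 and 0 YAP summits in the libraries labelled normal and 1 and 0 in those labelled tumor. Its members lay 2113 and 2701 bp downstream of the start, with scores of 6.68 and 6.06, and the tumor summit was 1072 and 1660 bp away. Its other 3 normal summits were shared with the tumor and had no tumor YAP. Without YAP tumor 1, 2 chief cell genes held a member, and moving the H3K27ac limit to 2 kb left none. Oosp3, an oocyte-secreted protein gene, had 2 members, which lie between it and Cblif, 24984 and 23444 bp from tumor H3K27ac. Neck and metaplasia markers held 1 member, at the mucin gene Muc4 (1 of 16 genes, score 2.62).

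The other gene lists each held members at 0 to 3 genes, to be read against 3.03% of all genes and 5.52% of genes with a normal summit. Gastric transcription factors had 2 of 24 genes (8.33%), Gata5 (score 2.62) and Sox21 (3.04), and 16 of their 71 normal summits were normal-only with tumor YAP against 2 members. Nuclear receptors had 2 of 46 (4.35%), of which 1 is described. Esr1, the estrogen receptor alpha gene, had 1 normal and 0 tumor H3K27ac summits, and that member lay 236 bp downstream of a start with a score of 5.59, 61003 bp from tumor H3K27ac. Genes of mitochondrial respiration and fatty acid oxidation had 3 of 35 (8.57%), which were Cpt2, Perm1 and Tfam. The member of Perm1, a muscle regulator gene induced by PGC-1 coactivators, lay 248 bp downstream of a start and 1033 bp from tumor H3K27ac. ER and secretory genes had 1 of 30 (3.33%), Pdia4, and YAP/TAZ targets 1 of 28 (3.57%), Amotl2, whose member lay 1086 and 1059 bp from tumor YAP. Proliferation genes had 1 of 25 (4.0%), Cdk1, and 2 without YAP tumor 1. Housekeeping genes had 0 of 18 and squamous genes 0 of 14.

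Markers of other cell types were also represented. Endocrine and tuft cell genes had members at 2 of 20 genes, Hdc, the histamine-forming enzyme of enterochromaffin-like cells, and Chgb, the chromogranin B gene, and these were 2 of the list's 5 normal summits (40.0%, 11.8 to 76.9). Hdc had 1 normal and 4 tumor H3K27ac summits, and Chgb had 1 and 1. Immune genes had 1 of 20, Ptprc, which encodes CD45. Its 1 normal summit, 237 bp downstream of a start with a score of 3.41, was 54850 bp from tumor H3K27ac. Stromal genes had 1 of 18, Col3a1, a fibrillar collagen gene, whose member lay 240 bp downstream of the start with a score of 6.56. Pancreas and liver genes had 1 of 12, Cela2a, a pancreatic elastase gene, both of whose normal summits were members, 1104 and 2173 bp upstream of the start with scores of 6.42 and 5.07. These members were 2 of the list's 7 normal summits (28.6%, 8.22 to 64.1). Intestinal genes had 1 of 14, Olfm4, and olfactory and vomeronasal receptors 1 of 1465, Vmn2r121. In the tumor list immune genes had 24 summits against 9 in the normal list, and stromal genes 55 against 15, where all genes had 50605 against 20039. Endocrine and tuft cell genes had 55 against 5, pancreas and liver genes 17 against 7, and intestinal genes 26 against 11. The part of such cells in the members was not tested.

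**Figure D5:**
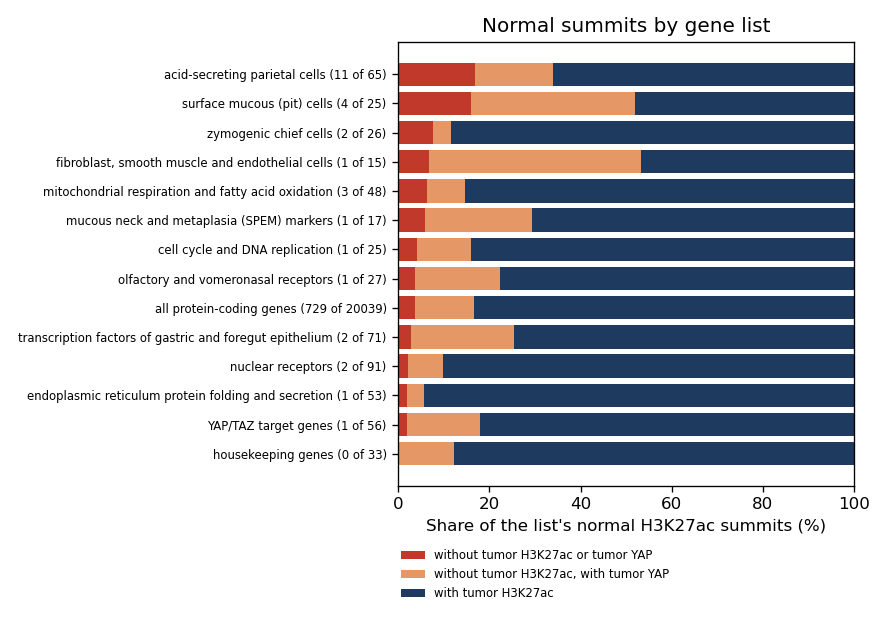
Share (%) of each gene list's normal H3K27ac summits that were members (red), normal-only with tumor YAP (orange) or shared with the tumor (blue), for lists with 15 or more normal summits; labels give members of all normal summits. Among the lists drawn, parietal (11 of 65) and pit cell genes (4 of 25) have the longest red bars, and housekeeping genes (0 of 33) have none. Endocrine and tuft (2 of 5, 40.0%) and pancreas and liver genes (2 of 7, 28.6%) had higher shares of fewer summits and are not drawn.

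The 7 genes with 3 members were Slc26a7, Best3, Gm10354, Agps, Rbm47, Cobll1 and Fa2h. Best3, a bestrophin channel gene, had 5 normal and 5 tumor H3K27ac summits, and its members scored 9.31, 4.79 and 3.41. Agps, a gene of ether lipid synthesis, had 6 and 6, Rbm47, an RNA-binding protein gene of endoderm, had 6 and 9, and Cobll1 had 5 and 2. Fa2h, which encodes fatty acid 2-hydroxylase, had 6 and 7, and its members lay within 1263 bp of each other with scores from 3.55 to 4.15. The predicted gene Gm10354 had 10 normal and 4 tumor H3K27ac summits and 7 summits of YAP normal 2. Among genes with 2 members, Atp1b1, the sodium pump beta subunit gene, had 5 normal and 2 tumor H3K27ac summits, and its best member scored 9.1, 2356 bp downstream of the start. Ifitm3 had 2 and 2, with both normal summits members (11.4 and 7.19). Cish, a feedback inhibitor gene of cytokine signalling, had 5 and 3, Phlda1 had 6 and 4 and Slc35f5 had 7 and 3. The remaining genes of the 20 with most members were Ms4a14, Gm6713, Neurl1b, Gm51877, Acpp, Zbtb38, Anxa10 and Tmem106b.

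At 14 genes, 0.3% of the 4667 genes with 2 or more normal summits, every normal summit was a member. They were Slc26a7, Anxa10, Ifitm3, Cela2a, Gm6713, Entpd1, Apba2, Kctd21, Fkbp6, Ms4a14, Oosp3, Tgtp2, Ifit3 and Cst8. The last 5 also had 0 tumor H3K27ac summits and 0 YAP summits in all 4 YAP libraries. Ifit3, an interferon-induced antiviral gene, had members 465 bp upstream and 147 bp downstream of its nearest starts with scores of 6.42 and 3.83, and tumor H3K27ac lay 41375 and 40763 bp away. Ms4a14, a member of the tetraspanning MS4A family, had the best score of these 5 (14.3). With normal summits closer than 2 kb merged, 3 genes at which 2 or more normal summits were all members were left, and without YAP tumor 2 there were 31. The rest of the 14 had tumor H3K27ac summits at other positions. Gm6713 had 2 normal and 4 tumor H3K27ac summits, and Entpd1 had 2 and 3. Ifitm3, Anxa10, Apba2, Kctd21 and Fkbp6 each had 2 and 2, Slc26a7 had 3 and 2, and Cela2a had 2 and 1.

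The best-scored members were not at genes of the gastric lists. The highest score, 22.8, belonged to a summit 14821 bp outside Pdia4, which encodes an ER disulfide isomerase, with tumor H3K27ac at 7195 bp and tumor YAP at 3205 and 3230 bp. It ranked 7777 in the normal list. Lmnb1, the lamin B1 gene, had a member of score 19.7 lying 3112 bp outside it, and Cdk1, the mitotic kinase gene, one of 18.9 lying 47679 bp outside it. The other 7 of the best 10 had no gene end within 50 kb. Of these, the summit at chromosome 4, 28176979, which scored 16.2, lay 1 and 26 bp from summits of YAP normal 1 and 2. It was also the member farthest from tumor H3K27ac, at 236153 bp, and the nearest tumor YAP was 636048 bp away. The summit at chromosome 3, 56575571, also at 16.2, lay 9 bp from a YAP normal 2 summit. Summits were not filtered here for repeats or mapping artifacts, and the part of such regions in these coincidences was not tested.

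The YAP libraries labelled normal were not used to choose the members. YAP normal 1 had a summit within 1 kb of 11 members (1.09%, 0.609 to 1.94) and YAP normal 2 of 16 (1.58%, 0.976 to 2.56). Either library was near 23 members (2.27%, 1.52 to 3.39) and both near 4 (0.396%, 0.154 to 1.01). For normal-only summits with tumor YAP the share with either was 2.8% (2.3 to 3.4), an interval that overlaps that of the members. It was 4.63% (3.44 to 6.2) for shared summits without tumor YAP and 7.9% (7.5 to 8.31) for shared summits with it. Up to percentile 10 of the score the shares were 1.19% (0.463 to 3.01) for members and 1.55% (0.887 to 2.68) for normal-only summits with tumor YAP. Shared summits in that band had 4.23% without tumor YAP and 3.82% with it. Between percentiles 10 and 25 members had 1.73%, and these shared classes 5.19% and 4.16%. Between 25 and 50 the 3 shares were 4.08%, 2.64% and 5.07%, and between 50 and 75 they were 8.0%, 5.26% and 6.6%. In all 4 bands the intervals of members overlapped those of both shared classes. The 4 members near both libraries were the chromosome 4 summit above, 1 inside the zinc transporter gene Slc30a4 (score 10.8, 125 and 155 bp from YAP normal 1 and 2), 1 lying 25825 bp outside Oxsm (78 and 60 bp) and 1 lying 25860 bp outside Apba2 (159 and 84 bp). Thus 988 of 1011 members had no YAP summit of any of the 4 libraries within 1 kb. With YAP normal 2 read as its peak names have it, as a tumor library in place of YAP tumor 1, the members numbered 1189 and 9 parietal genes held one.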

How the data were processed

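The 6 deposited lists of peak summits, 1 per library, were analysed. Bowtie2, MACS2 and build GRCm38 (mm10) are named in the submitters' processing notes. Versions, thresholds and control libraries: not given in the sources used here. Column 5 of each file, the deposited −log10 p-value or q-value score, was used by rank within a list only. Depth is unknown. Groups follow the labels. No filter for repeats or artifact-prone regions was applied here. The members and the 18 gene lists were chosen with earlier results of these data known.

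Distances between 1-based summits, Wilson 95% intervals and counts were computed with scipy 1.17.1, pandas 2.3.3 and numpy 2.4.6 under Python 3.11.15 and drawn with matplotlib 3.10.9; the classification was tested on simulated summits. Summits went to the nearest end of 21627 protein-coding genes (RefSeq, GRCm38.p6) within 50 kb. Named genes were the 20 with most members, up to 6 per list, those nearest the 10 best-scored members, those whose 2 or more normal summits were all members and those near normal-labelled YAP. Etv1, Arhgdib, Gkn1, Yap1, Atp4a and Atp4b and genes at the 1 kb limits or in runs were named after values were seen. No genome was used, so planned motif counts and most planned sequences around summits were not run. Promoters printed instead were also chosen after values were seen. Some single genes are not reported here.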

Additional observations from a re-analysis of the deposited data

How the results depend on the processing

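No paired analysis was possible because no result comes from a test and the H3K27ac groups have 1 library each. Leaving out either tumor YAP library in turn gave 1212 to 1741 members, 756 to 1102 genes with a member, 9 to 10 parietal genes, 19 to 31 genes whose 2 or more normal summits were all members, and 83.2% to 84.1% of members in runs of 1. Genes whose 2 or more normal summits were all members are called lost genes below, though they can have tumor H3K27ac summits at other positions. Leaving out a YAP library in turn, tumor or normal, gave 1.09% to 2.53% of members with normal-labelled YAP within 1 kb. At a score minimum of 5 there were 517 members at 345 genes, 5 of them parietal, 6 lost genes, a median percentile of 13.0, 3.68% with normal-labelled YAP and 92.8% in runs of 1. At a minimum of 10 there were 63 members at 39 genes, 1 of them parietal, 1 lost gene, a median percentile of 10.5, 12.7% near a gene end, 6.35% with normal-labelled YAP, 39.7% within 5 kb of tumor H3K27ac (30.5% as reported) and 100% in runs of 1. With the tumor list shortened to the normal length there were 14 parietal genes, 23 lost genes, 9.59% near a gene end, 13.4% within 5 kb of tumor H3K27ac and 84.7% in runs of 1. A tumor H3K27ac limit of 500 bp gave 8.65% near a gene end and 38.6% within 5 kb; 2 kb gave 18% within 5 kb; 5 kb gave 426 genes and, by construction, 0.0% within 5 kb. A tumor YAP limit of 500 bp gave 9.12% near a gene end and 34.6% within 5 kb of tumor H3K27ac; 2 kb gave 4 parietal genes and 24.9%; 5 kb gave 570 members, 344 genes, 3 parietal genes, 17.9% and 84.2% in runs of 1. Excluding all 4 YAP libraries left, by construction, 0.0% with normal-labelled YAP; the 2 libraries with the tumor word gave 0.589% and 84.4% in runs of 1. Merging summits below 2 kb gave a median percentile of 13.5, 24.4% within 5 kb of tumor H3K27ac, 97.4% in runs of 1 and 3 lost genes. Gene ends within 10 kb gave 337 genes and 4 parietal genes. Widening the distance gave 12.8% within 2 kb of a gene end and 4.45% with normal-labelled YAP within 5 kb. Other settings gave 703 to 1470 members. Motif windows of other widths were not run, since no genome was used. Apart from the changes that follow by construction, the cause was not tested. Depth is unknown, and so is how far it limits the number of summits in each list.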
